A study of Mus musculus with 3 samples.

Results

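Pseudogene copies of ribosomal protein genes were described in leukemia cells of 3 mice. They were taken as every symbol of the deposited table that begins with Rpl or Rps and ends in -ps with or without digits, which gave 177 of 28074 symbols. These carry the names of 54 parent genes, the parent being the symbol before -ps, and all 54 parents were listed. The cells came from mice of the genotype miR196b-/-Dnmt3afl/fl,Flt3ITD/ITD,Mx1Cre, whose titles write the Dnmt3a state as Dnmt3a+/-. All 3 mice share the deletion of the microRNA miR-196b, the floxed Dnmt3a alleles, the internal tandem duplication of the receptor Flt3 and the Mx1Cre transgene. Mx1Cre expresses Cre recombinase from an interferon-inducible promoter that is also active outside blood cells, which limits how far a lesion can be assigned to the leukemia alone. Leukemic spleen cells of 3 moribund mice were enriched for c-Kit, a receptor of immature blood cells, and each mouse is 1 sample. The study set these against control leukemias with miR-196b intact, which come from a separate series and are not used here. The genotypes are therefore not compared. The unit is TPM, transcript abundance per length scaled to a fixed total. TPM keeps no depth, so the depth reached is unknown beyond the number of reads planned, and the error given is the SD over mice.

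Ribosomal proteins are made from single genes that are read at high and similar rates, because each ribosome holds nearly every protein in a single copy. Their abundant mRNAs have often been copied back into the genome by reverse transcription, which leaves intronless processed pseudogenes that resemble the spliced mRNA. A short read from such a copy and a read from the parent's exons can be the same string of letters, and a quantifier then has to divide it between the entries.

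The copies were compared with their parents in the GENCODE M21 transcripts (GRCm38, the assembly also called mm10), where 176 of 177 matched by symbol and Rps23-ps matched through a RefSeq synonym, Rps23-ps1. Of the 177, 167 were annotated as processed pseudogenes, 5 as transcribed processed pseudogenes and 5 as protein coding. They lay on 20 chromosomes, with 21 on the X chromosome. Their median length was 463 nt (range 151 to 1214), and the median identity to the parent transcript was 96.9%, with a lowest value of 80.0%. The copies that carry the results are of 2 kinds and are shown for that reason. The first kind is identical to the parent. Rpl38-ps2, at chr6:140746960-140747172 on the minus strand, copies the whole coding sequence of Rpl38, whose protein sits in the large subunit. Rps13-ps2, of which the first 120 bases are shown from chr7:88530779-88530898 on the minus strand, copies Rps13, a small-subunit protein. Neither holds a base that differs from the parent over its aligned length, so no letter is in capitals.
Rpl38-ps2: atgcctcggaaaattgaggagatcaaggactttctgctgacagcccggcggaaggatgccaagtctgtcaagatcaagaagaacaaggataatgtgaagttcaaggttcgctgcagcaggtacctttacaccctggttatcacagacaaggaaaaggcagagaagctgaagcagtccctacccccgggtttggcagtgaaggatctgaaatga
Rps13-ps2: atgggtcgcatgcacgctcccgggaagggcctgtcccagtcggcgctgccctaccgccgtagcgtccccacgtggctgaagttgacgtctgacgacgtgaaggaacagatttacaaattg

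The second kind differs at a few bases, marked by capitals in the parent and in the copy. Positions are counted from 1 at the first base of the parent's coding sequence, with the parent's base first. Rpl3-ps1, on the plus strand of the X chromosome, differs from Rpl3 by C57A and T786C over 1210 aligned bases. Both sites are shown, the first at chrX:13202588-13202668 and the second at chrX:13203317-13203397.
Rpl3, first site: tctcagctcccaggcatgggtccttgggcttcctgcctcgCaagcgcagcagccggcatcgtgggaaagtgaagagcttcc
Rpl3-ps1, first site: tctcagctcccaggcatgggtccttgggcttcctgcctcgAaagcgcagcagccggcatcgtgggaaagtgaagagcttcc
Rpl3, second site: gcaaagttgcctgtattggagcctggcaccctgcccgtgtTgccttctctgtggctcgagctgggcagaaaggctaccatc
Rpl3-ps1, second site: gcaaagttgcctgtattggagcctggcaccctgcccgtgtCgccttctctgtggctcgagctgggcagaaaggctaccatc

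Rps27a-ps2, shown from chr9:83409994-83410074 on the plus strand, differs from Rps27a by the single substitution A375G over 467 aligned bases.
Rps27a: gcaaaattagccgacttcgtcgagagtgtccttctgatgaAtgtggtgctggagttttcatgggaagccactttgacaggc
Rps27a-ps2: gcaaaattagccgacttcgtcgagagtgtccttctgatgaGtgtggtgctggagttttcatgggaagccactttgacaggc

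Rpl21-ps15, shown from chrX:151215198-151215334 on the minus strand, differs from Rpl21 by T336C, G378A and T432C, all of which lie in the stretch shown.
Rpl21: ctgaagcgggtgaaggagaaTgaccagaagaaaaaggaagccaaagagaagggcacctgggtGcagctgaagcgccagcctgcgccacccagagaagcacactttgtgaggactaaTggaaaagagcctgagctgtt
Rpl21-ps15: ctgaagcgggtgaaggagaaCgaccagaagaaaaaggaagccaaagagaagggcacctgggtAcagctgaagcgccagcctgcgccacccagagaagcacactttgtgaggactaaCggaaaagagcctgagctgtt

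For contrast, Rps12-ps26, shown from chr11:107171997-107172097 on the minus strand, is a diverged copy. Its identity to Rps12 is 89.34% over its whole aligned length, and the stretch shown is less diverged than that.
Rps12: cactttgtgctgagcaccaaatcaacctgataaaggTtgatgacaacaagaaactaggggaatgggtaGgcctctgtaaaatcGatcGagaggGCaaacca
Rps12-ps26: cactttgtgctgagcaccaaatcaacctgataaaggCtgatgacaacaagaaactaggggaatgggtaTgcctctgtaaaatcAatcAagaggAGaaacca

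The summed TPM of the 177 pseudogene symbols was 19101, 15717 and 17101 in mice 1, 2 and 3. The mean was 17306 ± 1701 (SD, n = 3), or 1.86% ± 0.181 of the column. Mouse 1 had the highest sum, but after scaling to a common upper quartile the sums were 18059, 15766 and 18031, so mice 1 and 3 then differed little. The parents summed to 58155, 51296 and 56107, and the pseudogenes made up 24.7%, 23.5% and 23.4% of pseudogenes plus parents. Against all 78 cytosolic ribosomal protein genes listed, they made up 18.2%, 17.4% and 17.4% of the joint sum. At a threshold of 1 TPM, 84, 79 and 84 pseudogenes were detected, which is 47.5%, 44.6% and 47.5% of the 177, beside 53.8%, 53.8% and 53.3% of all symbols. Among the 522 other symbols ending in -ps, the corresponding shares were 12.6%, 11.7% and 12.5%. In bulk RNA, fewer cells that express a gene and less RNA per cell cannot be told apart.

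The levels were very uneven. Listed at 0 in all mice were 28 pseudogenes, 65 were above 0 with a mean under 1, 61 had a mean from 1 to under 10, 11 from 10 to under 100, and 12 at least 100. Those 12 held 96.4% to 97.2% of the summed TPM of all 177, depending on the mouse. Without them the summed level had a mean of 546 TPM. There was a gap below them: the 12th, Rpl38-ps2, had a mean of 285 TPM and the 13th, Rpl21-ps15, a mean of 60.9 TPM.

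**Figure D1:**
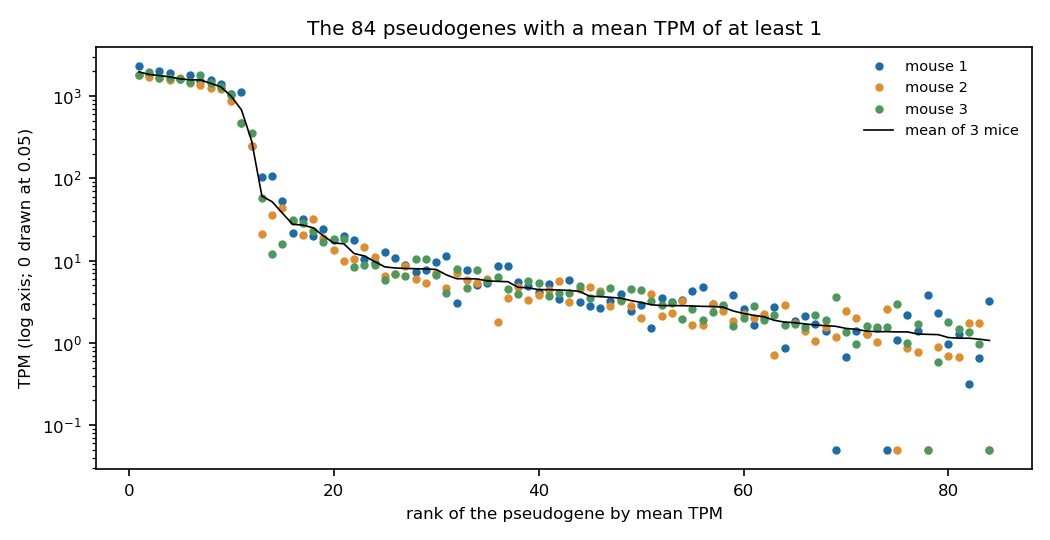
TPM (log axis) of the 84 pseudogenes with a mean TPM of at least 1, ranked by mean, with a point for each mouse and a line for the mean of 3 mice; values of 0 are drawn at 0.05. The first 12 lie at a mean of at least 100, and the points of the 3 mice spread further apart towards the low end.

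In 11 families the pseudogenes held a mean of over 50% of the family's TPM, the family being the parent plus its listed pseudogenes. In 10 of them the share was above 50% in every mouse. The other, Rpl3, had 99.9%, 46.2% and 46.1%, so without mouse 1 the count is 10. Rps12, which encodes a small-subunit protein, was listed at 0 in all 3 mice, while Rps12-ps3 had 1545, 1377 and 1802 TPM. Rps12-ps3 is 1 of the 5 copies annotated as protein coding and is identical to Rps12 over its 494 bases. Rps13 had 48.0, 43.3 and 39.0 TPM beside 2022, 1665 and 1656 TPM for Rps13-ps2. The parent stood far below the copy in every mouse in both families.

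The same order held for other small-subunit proteins. For Rps23, whose protein lies at the decoding center, the parent had 273, 276 and 418 TPM and Rps23-ps had 2312, 1785 and 1810.2 TPM. For Rps6, the protein phosphorylated by S6 kinases, the parent had 209.9, 189.9 and 201 TPM and Rps6-ps4 had 1892, 1577 and 1667 TPM. Rps16 had the highest parent level of these families at 564, 509 and 625 TPM, beside 1800, 1436 and 1500 TPM for Rps16-ps2. In each of these families the highest parent value lay below the lowest value of the copy.

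Among large-subunit proteins, Rpl31, a protein near the exit of the peptide tunnel, had 59.0, 47.2 and 59.0 TPM, and Rpl31-ps8 had 1811, 1702 and 1992 TPM. Rpl31 has the most named copies, 12, and Rpl31-ps8 alone held a mean of 96.0% of the family. Rpl27 had 99.1, 80.3 and 68.8 TPM beside 1395, 1208 and 1280.5 TPM for Rpl27-ps3. Rpl15 had 162, 141 and 144 TPM beside 1588, 1259 and 1443 TPM for Rpl15-ps3. All 3 copies lack a base difference from the parent over their aligned length.

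Rpl10a had 247, 187 and 186 TPM beside 1068, 884 and 1038 TPM for Rpl10a-ps1. Rpl10, a late-joining protein of the large subunit, had 404, 350.4 and 329.8 TPM beside 1618, 1642 and 1602 TPM for Rpl10-ps3. Rpl10-ps3 had the narrowest spread of the 12, with an SD of 0.02 on the log2(TPM + 1) scale, and it too is annotated as protein coding.

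The sums of copies and parent in these families were set against the other ribosomal protein genes, each taken without its copies. The 11 family sums had a median of 1831 TPM (range 1049.8 to 2291), whereas their parents alone had a median of 200.4 TPM. The other 67 cytosolic ribosomal protein genes listed had a median of 1125 TPM, with quartiles of 833 and 1472. The median of the sums was thus above the upper quartile of the other genes, and the median of the parents alone was below their lower quartile. The 2 sides are unlike. With all annotated copies added, Rpl27a rose from a mean of 135 to 1920 TPM and Rpl12 from 100 to 1852 TPM, while most other families changed little. TPM divides by length, and the copies are shorter than the parent transcripts. Low parent values also follow in part from choosing families with a pseudogene share above 50%. Of the remaining families, 11 had a pseudogene share from 1% to 50% and 32 a share under 1%. The highest of these shares were those of Rpl21, with 39.7%, 17.9% and 25.3% in mice 1, 2 and 3 (mean 27.6% ± 11.1, SD, n = 3), and Rpl38, with 19.5%, 20.8% and 25.2% (mean 21.8% ± 3.01). The 2 overlap, and mouse 1 alone sets Rpl21 well above Rpl38.

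**Figure D2:**
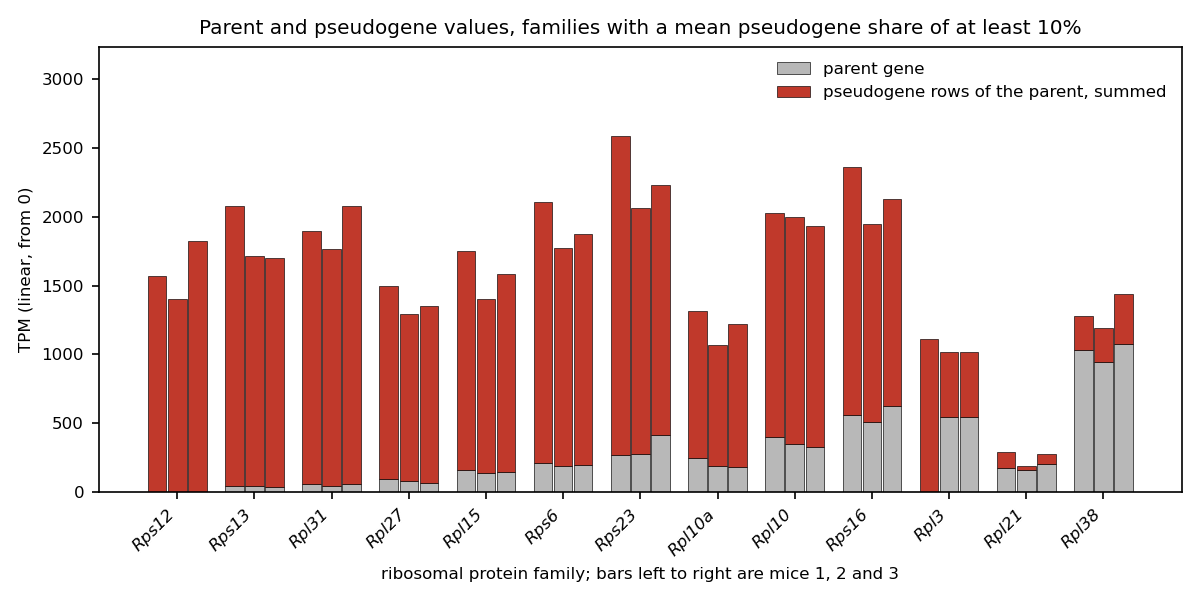
Stacked TPM (linear axis from 0) of the parent gene (grey) and its summed pseudogenes (red) in the 13 families with a mean pseudogene share of at least 10%, with 3 bars per family for mice 1, 2 and 3. The red part fills all of the Rps12 bars, and the Rpl3 bar of mouse 1 is red where those of mice 2 and 3 are mixed.

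Whether a copy ranked high went with how little of its sequence was absent from its parent. Each copy was split into overlapping stretches of 31 bases, the default word length of the quantifier kallisto, and those absent from every annotated transcript of the parent were counted as its own windows. Other copies of the family were not searched, so an own window can also occur in a sibling copy. Of 12 copies with no window of their own, 10 had a mean of at least 100 TPM, and the 2 others, Rpl10-ps1 and Rpl28-ps1, were listed at 0 in all mice. Of 18 copies with 1 to 62 own windows, 2 had a mean of at least 100 TPM, Rpl10-ps3 with 28 windows and Rpl3-ps1 with 62. None of the 57 copies with 63 to 250 own windows did, nor any of the 90 with over 250. The highest mean among the copies with 63 to 250 own windows was 60.9 TPM. The class limits were chosen after the values were seen.

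The share of copies with a mean TPM of at least 1 was 83.3%, 77.8%, 64.9% and 25.6% in these 4 classes, from no own windows to over 250. Across the 177 copies, the percentage of own windows and the mean share of the family's TPM had a Spearman correlation of -0.54, and it was -0.51 among the 147 copies with over 62 own windows. These are correlations across copies of the same 3 libraries, and copies of a family share a parent, so they are descriptions. The annotation the values were made with is not given in the sources used here, and the part that shared sequence plays in the levels was not tested.

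**Figure D3:**
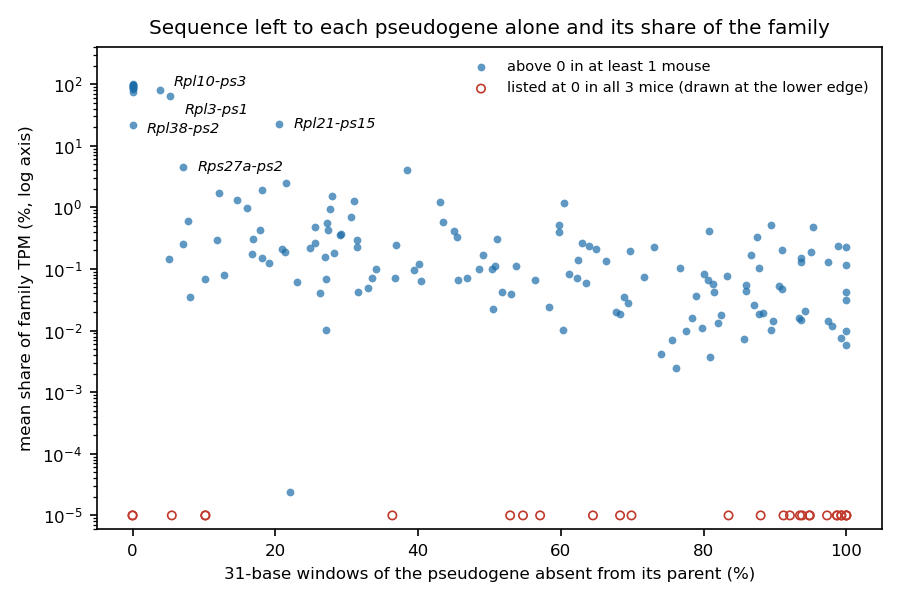
Mean share of the family's TPM (%, log axis) against the percentage of a pseudogene's 31-base windows that are absent from its parent, with a point per pseudogene (n = 177) and open circles at the lower edge for those listed at 0 in all 3 mice. The copies with the largest shares sit at the left, and open circles occur along the whole axis.

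All 12 copies with a mean of at least 100 TPM were shorter than the parent transcript they aligned to, with lengths of 213 to 1210 nt against 364 to 1351 nt. The same held for all 175 copies that aligned. For identical copies the windows of the parent that the copy lacks run beyond the copied stretch: Rps13 has 136 of 559 windows not in Rps13-ps2, and Rps6 has 128 of 848 not in Rps6-ps4. Near-identical sequence did not always go with a high value. Rpl35a-ps2, Rpl35a-ps3 and Rpl35a-ps4, copies of a large-subunit protein gene, each differ from Rpl35a by the same substitution, G156A. Rpl35a-ps3 and Rpl35a-ps4 were listed at 0 in all mice, and Rpl35a-ps2 had 3.81, 0 and 0 TPM.

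The clearest movement between copies was in the family of Rpl3, a protein close to the peptidyl transferase center. Rpl3 had 1.24, 546 and 549 TPM in mice 1, 2 and 3, and Rpl3-ps1 had 1113, 467 and 469 TPM. In mouse 1 nearly the whole family value stood on the pseudogene, and in mice 2 and 3 it was divided nearly evenly. The family sum was 1116, 1014 and 1019.6 TPM. On the log2(TPM + 1) scale the SD over mice was 4.58 for Rpl3, 0.72 for Rpl3-ps1 and 0.08 for the sum. Rpl3 was the only one of 53 parents with a mean of at least 1 whose highest and lowest mouse differed at least 2-fold, counted on TPM + 1. That is 1.89% of the parents, beside 8.57% of all symbols at that mean and 5.02% of those with a mean of at least 100. The cause of the different division in mouse 1 was not tested.

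Rps27a encodes ubiquitin fused to a small-subunit protein. Rps27a-ps2, with the single substitution shown above, had 108, 35.7 and 12.2 TPM, the widest spread of any copy with a mean of at least 1 (SD 1.52 on the log2 scale). Rps27a had 1106, 988 and 1170.3 TPM, so the copy was 8.89%, 3.49% and 1.04% of the family. Each mouse differed from the next by over 2-fold in the copy and by little in the parent.

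Rpl21-ps15 had 104, 21 and 57.6 TPM beside 177, 159 and 207 TPM for Rpl21, a large-subunit protein gene. Here the sum did not level the mice: it was 293, 193 and 277 TPM, with an SD of 0.32 on the log2 scale against 0.19 for the parent. The value of Rpl21 is low for a ribosomal protein gene, and another annotated copy, Gm10163, had 349, 428 and 459 TPM. With the 10 further copies annotated for this family, the sum was 646, 626 and 743 TPM.

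Rps10-ps2, which differs from Rps10 at 5 bases, had 53.4, 43.7 and 15.9 TPM beside 1548, 1343 and 1449 TPM for the parent, so mouse 3 was lowest in the copy but not in the parent. Rpl38, whose protein is known for its part in translating Hox mRNAs in the embryo, had 1031, 946 and 1077 TPM, and Rpl38-ps2 had 248, 248 and 360.1 TPM. Rpl38-ps2 is the only copy with no own window and a mean of at least 100 TPM whose parent stood above it.

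**Figure D4:**
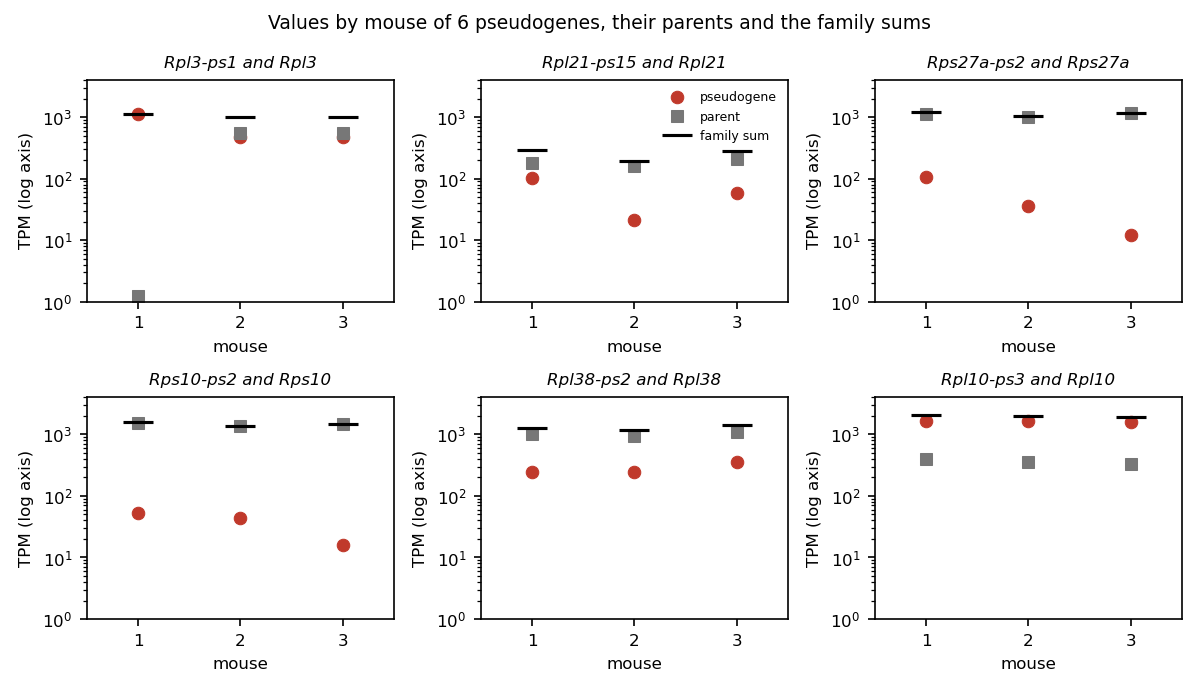
TPM (log axis) of 6 pseudogenes (circles), their parents (squares) and the family sums (bars) in mice 1, 2 and 3. Rpl3 lies at 1.24 in mouse 1 while the sum stays between 1014 and 1116, and Rps27a-ps2 spans 12.2 to 108 beside a parent between 988 and 1170.3.

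Other copies with a mean of at least 10 TPM stood far below their parents. Rpl30 had 3 of them: Rpl30-ps9 with 21.4, 30.5 and 31.1 TPM, Rpl30-ps3 with 24.1, 18.9 and 16.9 TPM, and Rpl30-ps10 with 20.1, 9.81 and 18.2 TPM. Rpl30 itself, which encodes a large-subunit protein, had 1662, 1443 and 1567 TPM. Rpsa-ps10, a copy of the gene for the small-subunit protein also called the laminin receptor, had 31.7, 20.4 and 28.9 TPM beside 1534, 1301 and 1287 TPM for Rpsa. Mouse 2 was the lowest in Rpsa-ps10 and Rpl30-ps10, and mouse 1 was the lowest in Rpl30-ps9.

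Rps25-ps1 had 17.6, 13.6 and 18.1 TPM, Rpl14-ps1 had 17.6, 10.6 and 8.47 TPM, and Rps26-ps1 had 10.6, 14.6 and 8.78 TPM. Each of these 3 was under 2% of its family, with Rps25, Rpl14 and Rps26 at means of 1059.9, 894 and 3189 TPM. Rps26-ps1 is annotated as a transcribed processed pseudogene.

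Several low copies were listed in some mice and at 0 in others. Rpl31-ps20 had 3.21, 0 and 0 TPM and Rps15-ps2 had 0, 1.17 and 3.59 TPM. With Rps27a-ps2, Rpl21-ps15 and Rpl35a-ps2, these were the 5 copies with the widest SD among those with a mean of at least 1.

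A wide range between mice was more frequent among the copies than among all symbols. Of the 84 with a mean of at least 1, 20 (23.8%) had a highest and a lowest mouse at least 2-fold apart on TPM + 1, beside 8.57% of all symbols. Low values vary more, and within a mean of 1 to under 10 the shares were 16 of 61 copies (26.2%) and 14.3% of all symbols. At 10 to under 100 they were 3 of 11 copies (27.3%) and 5.2% of all symbols, and at 100 or more 1 of 12 copies (8.33%), Rpl3-ps1, and 5.02%. The other -ps symbols stood at 20.3%, near the share of the copies. The count of 20 copies rested in part on single mice: without mouse 1 it was 6 of 84 (7.14%, beside 2.96% of all symbols), without mouse 2 it was 12 of 85 (14.1%, beside 5.52%), and without mouse 3 it was 14 of 81 (17.3%, beside 4.67%). Mouse 1 was the highest in 13 of the 20, mouse 2 in 4 and mouse 3 in 3. Over all symbols with a mean of at least 1, whatever their range, mouse 1 was the highest in 48.6%, mouse 2 in 31.1% and mouse 3 in 20.3%.

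The median SD over mice on the log2(TPM + 1) scale was 0.306 for the 84 copies and 0.208 for all symbols. By level it was 0.31 against 0.255 at a mean of 1 to under 10, 0.348 against 0.187 at 10 to under 100, and 0.166 against 0.184 at 100 or more. In the 46 families whose pseudogenes had a mean sum of at least 1, the median SD was 0.269 for the summed pseudogenes and 0.133 for both the parent and the family sum. No family sum had a 2-fold range, the widest being Rpl5 at 1.97-fold with 163, 110.5 and 82.7 TPM. Rpl5 encodes a protein of the large subunit that also binds Mdm2.

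Adding the copies to the parent narrowed the spread in 24 of 54 families, and in most of them by little. The SD fell by over 0.1 in 4 families, Rpl3, Rps23, Rpl27 and Rpl10. It was wider by over 0.1 in Rpl21, and in Rps12, where the parent was listed at 0 throughout and the sum had to be wider. In 7 of the 46 families the summed pseudogenes were highest in the mouse in which the parent was lowest, and in 25 they were highest in the mouse in which the parent was highest. After scaling to a common upper quartile these counts were 11 and 18. The 46 families include Rps12, whose parent has no highest or lowest mouse. How often either order would occur with unrelated values was not worked out. That scaling shifted log2 values by -0.08, 0.00 and 0.08 in mice 1, 2 and 3. It also moved the number of copies highest in mouse 1 from 42 of 84 to 32, and in mouse 3 from 26 to 35. Over all symbols with a mean of at least 1, the share highest in mouse 1 moved from 48.6% to 35.1%. For mouse 3 that share moved from 20.3% to 32.3%. All symbols thus shifted in the same directions as the copies.

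The samples were checked against markers of the cells they could hold. Of 10 myeloid leukemia markers, 9 were listed and all 9 had a mean of at least 1, with Kit at 139, 149 and 133 TPM. Spi1 was listed under its older symbol Sfpi1 at 185, 264 and 225 TPM, and Ptprc, the common leukocyte gene, was low at 2.25, 3.09 and 2.4 TPM. Erythroid markers summed to 25.9, 17.1 and 67.6 TPM, with Hba-a1 at 0.377, 0.116 and 1.26. B cell markers summed to 47.0, 88.8 and 123 TPM, T cell markers to 31.2 to 34.2, and stromal and endothelial markers to 71.5 to 84.6. A mean of at least 1 was reached by 4 of 5 erythroid, 4 of 5 B cell, 4 of 5 T cell and 2 of 5 stromal and endothelial markers. The part of these cells in the pseudogene values was not tested. Dnmt3a had 52.2, 64.9 and 54.6 TPM, a value per gene that does not check the loss of a floxed exon. The level of miR-196b was not analysed here.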

How the data were processed

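RNA of c-Kit-enriched leukemic spleen cells from 3 mice was sequenced as paired 150 nt reads. Per the labels' protocols RNA had an integrity number above 8, and 1 protocol names ribosomal depletion while another names an mRNA kit. The authors deposited 1 table of values per symbol. The deposited values, made with kallisto on mm10 per the submitters' processing notes, were treated as TPM, since they were linear and the columns summed to 929731, 927169 and 928490, although the table's name calls them log2 FPKM. Version and annotation are not given in the sources used here. The table's 3 other per-sample columns match no sample of the series and were not used.

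Of 28987 rows, 795 without a symbol (0.584%, 0.532% and 0.608% of the columns) and 27 holding a date were left out, and 90 symbols on several rows were summed. Mice 1, 2 and 3 follow the order of the sample records. Spread is the SD of log2(TPM + 1), with a pseudocount of 1, which understates changes of low genes. With 1 group no test was possible. The 2-fold count used a mean TPM of at least 1. Copies were aligned to parent transcripts with blastn 2.17.0 (word size 11), and own windows were counted at 31 bases. Copies named are those with a mean TPM or family share of at least 10 (TPM or %), the 5 highest and the 5 widest, with their parents, and parents with a 2-fold range; any other named copy was picked with its values known, and 1 copy that the rule names is not reported here. The pseudogenes and lists were chosen with earlier results of these data known. The 2-fold count and the narrowing of family sums were checked on simulated families, whose settings fixed the outcome. This checks the code and not the data, and the other counts were not checked in this way. Alternatives varied the pseudocount, thresholds, filter, scaling, multi-row symbols and the mice used. Python 3.11.15, numpy 2.4.6, pandas 2.3.3 and matplotlib 3.10.9 were used.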

Additional observations from a re-analysis of the deposited data

How the results depend on the processing

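The summary values were recomputed 62 times under other settings, and 53 stayed within their spread or within 1.5 times the reported count. The count of 20 copies with a 2-fold range was 6 to 14 with a mouse left out, 31 with a pseudocount of 0.1, 9 at a mean TPM of at least 5, 43 at 1.5-fold and 6 at 4-fold. A mean of 82.3 copies per mouse reached a TPM of 1, against 127 at 0.1 and 36.3 at 5. The summed level of 17306 TPM was 546 TPM without the 12 copies at a mean of at least 100. That alternative and the one that adds other annotated copies to the family sums, which gave 25 narrower sums in place of 24, were chosen after seeing the data. All 260 recomputed values of named copies stayed within their SD over mice. Leaving a mouse out cannot move a mean by more than that SD, and scaling a column leaves a family share unchanged. The count of 260 is therefore no evidence of stability. Without mouse 1 the mean share of Rpl3-ps1 fell from 63.9% to 46.0%. The same limit holds for the summary values that were judged by their spread. Leaving out symbols on several rows changed none of the summary values, and scaling a column cannot change a pseudogene's share. The count of 53 is therefore no evidence of stability either. No paired analysis was possible because the 3 mice form a single group. Depth is unknown, so no counting error or floor can be given, and values near 0 carry an error that these files do not show.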

Other observations

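Other annotated copies of ribosomal protein genes, most with Gm names and none with a -ps name, also stood at high levels in part. GENCODE M21 holds 124 listed symbols of a pseudogene type that share at least 50% of their 31-base windows with a ribosomal protein gene; 83 of them had a mean TPM of at least 1 and 9 a mean of at least 100. Together they summed to 8036, 7089 and 7553 TPM in mice 1, 2 and 3. Gm7536, a copy of Rpl27a, had 1822, 1680 and 1839.7 TPM beside 151, 122 and 133 TPM for the parent. Gm10275, a copy of Rpl12, had 1967, 1525 and 1726 TPM beside 121, 94.1 and 85.2 TPM. In both the copy was above the parent in every mouse. Gm10443 had 1388, 1278 and 1464 TPM beside 792, 760.2 and 852 TPM for Rps28, and Gm9843 had 603, 657 and 739.9 TPM beside 773, 749 and 724 TPM for Fau, which encodes a ubiquitin-like protein fused to a small-subunit protein. Of the 10 such copies with no window of their own, 5 had a mean of at least 100 TPM. These symbols were chosen after their values were seen. Rps27 was listed at 0 in all 3 mice, as was Rps12.

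Of 8 paralogs with their own names and open reading frames, 7 were listed and 5 had a mean of at least 1. None had a 2-fold range, a count too small to set against the 8.57% of all symbols with a mean of at least 1. Rpl36al had 355, 369 and 406 TPM, Rps27l had 234, 235 and 292 TPM, and Rpl22l1 had 214, 190.1 and 215 TPM. Rpl3l, known from muscle, and Rpl10l, known from testis, had means of 0.466 and 0.0245 TPM. All 16 ribosome biogenesis genes had a mean of at least 1 and none a 2-fold range. Of all symbols, 5.2% had such a range at a mean of 10 to under 100 and 5.02% at 100 or more. A list of 16 is too small to set against these shares. The median SD of the ribosome biogenesis genes on the log2(TPM + 1) scale was 0.26. For all symbols it was 0.187 at a mean of 10 to under 100 and 0.184 at 100 or more. Npm1, the nucleolar chaperone, was highest at 1235, 871 and 984 TPM. Among -ps symbols of other gene families, Tpt1-ps3 had 1064, 919.7 and 848 TPM beside 3371, 3550.5 and 3509 TPM for Tpt1. Nutf2-ps1 had 145, 116 and 143 TPM beside 11.7, 9 and 11 TPM for Nutf2, a nuclear transport factor, and Mrpl23-ps1 had 76.3, 61.8 and 59.1 TPM beside 11.2, 5.42 and 6.64 TPM for Mrpl23, a mitochondrial ribosomal protein gene. Eif4a-ps4 had 0, 17.9 and 73.7 TPM.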
